A study of Homo sapiens with 8 samples.

Results

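The keratin genes are the members of the family named KRT1 to KRT86, found on the array by a current gene symbol made of KRT, a number and at most 1 further letter A to C, without keratin-associated protein genes and pseudogenes. The family has 54 members, 28 of type I and 26 of type II. The symbols were reached through the transcript accession of each probe. KRT34 and KRT86 had no probe under a matched accession, and the other 52 are among the 22435 named genes on the array. The series holds 8 2-colour Agilent arrays of human lung cancer cell lines, all on 1 slide, with the treated RNA in red (Cy5), the control RNA of the same line in green (Cy3) and no dye swap. The labels give 2 arrays of cells transfected with miR-150-3p, 1 of EBC-1 and 1 of SK-MES-1, both lung squamous cell carcinoma. A further 3 arrays are of SBC-3, derived from small cell lung cancer, transfected with the siRNAs siDONSON-1, siDONSON-2 and siDONSON-3 against DONSON, a replication fork protein. The last 3 arrays are of A549 lung adenocarcinoma cells, GE1 to GE3, in which LOXL2, a lysyl oxidase of the extracellular matrix, was knocked down by CRISPR/Cas9 genome editing. The control of the transfected cells is called mock in one label and untransfected in another, and the A549 control was not edited. The labels do not say whether GE1 to GE3 are separate clones, nor whether the controls of a line are separate cultures, so the p-values measure only the spread between these arrays, which may be technical.

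Keratins are the intermediate filament proteins of epithelial cells. A filament is built from heterodimers of a type I (acidic) and a type II (basic) keratin, so that keratins are made in pairs. Simple epithelia, such as that of the airways and alveoli, carry KRT8, KRT18, KRT7 and KRT19. Basal cells of stratified epithelia carry KRT5 with KRT14, suprabasal cells switch to pairs such as KRT1 with KRT10, and hair and its root sheath have keratins of their own. Most type I genes lie in a cluster on chromosome 17 and the type II genes lie in a cluster on chromosome 12, with KRT18 beside KRT8. Pathologists use keratins to tell carcinomas apart, with KRT5 as a squamous marker and KRT7 as a marker of lung adenocarcinoma.

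The controls are described by the log2 level of the green channel, which is the software's processed intensity after quantile normalization of the mean brightness between arrays. Levels were compared for the same probes between lines, not between genes. A probe was well above background where the scanner software marked it so, and a log2 level of about 4.41 to 5.23 was the lowest among such probes on an array. In green, 14 of 52 keratins were well above background in EBC-1, 19 in SK-MES-1, 17 in SBC-3 and 15 in A549 on every array of the line. These were 26.9% to 36.5% of the keratins, against 58.4% to 64.6% of all named genes. The treated channel was also used for the log2 ratios of red over green, for which a probe counted on an array if the software marked it so in red, green or both. Of the 52 keratins, 31 counted on at least 1 array, 16 on all 8 arrays, and 21 on no array. The 21 were KRT1, KRT2, KRT5, KRT6A, KRT6C, KRT12, KRT20, KRT23, KRT33B, KRT36, KRT37, KRT38, KRT40, KRT71, KRT72, KRT74, KRT75, KRT76, KRT77, KRT82 and KRT84. KRT6B, KRT35 and KRT79 counted on 1 array each, KRT13 on 2 and KRT39 on 7. The basal keratin KRT5 was thus not well above background in either squamous line.

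The labels were checked against markers. In SBC-3, the neuroendocrine markers NEUROD1, CHGA, CHGB, SYP and DLL3 were well above background, whereas INSM1 was not. Of these, only NEUROD1 and SYP were above background in SBC-3 alone. CHGA and CHGB were above background in A549 too, and DLL3 in every line. CHGA was higher in A549 (8.07 to 8.14) than in SBC-3 (5.85 to 6.55), and so was DLL3 (10.86 to 10.95 against 8.85 to 9.03). Of 10 squamous markers, 4 were above background in EBC-1, 6 in SK-MES-1, 4 in SBC-3 and 2 in A549. TP63, a defining squamous regulator, was above background in SK-MES-1 and SBC-3 and not in EBC-1, and DSG3, DSC3 and CLCA2 were above background in no line. Of 9 lung adenocarcinoma markers, 3 were above background in A549, without NKX2-1, against 4 in EBC-1, 5 in SK-MES-1 and 1 in SBC-3, so that these markers did not set A549 apart from the squamous lines. All 10 epithelial markers were above background in EBC-1, 6 in SK-MES-1 and A549, and 4 in SBC-3, where CDH1 (E-cadherin) and EPCAM were not. The targeted genes followed their labels. DONSON had log2 ratios of -2.15, -1.79 and -2.11 with the 3 siRNAs (mean -2.02, SE 0.16, limma adjusted p = 0.00168), and LOXL2 had -2.49, -2.67 and -2.59 in the edited cells (mean -2.58, SE 0.23, adjusted p = 0.00126).

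The type I keratins KRT24, KRT25, KRT26, KRT27 and KRT28 stand next to each other on chromosome 17, and they marked off SBC-3 from the other lines. The bases just before the start sites of these genes are shown because the genes are adjacent and share a level pattern. Those of their neighbours KRT10 and KRT12, which do not share the pattern, are shown beside them. The stretches are the 100 bases before each start in the promoter table of RefSeq (GRCh38.p14), on the minus strand of chromosome 17, written 5′ to 3′, with the letters TATAAA in capitals.
KRT24, chr17:40703753-40703852: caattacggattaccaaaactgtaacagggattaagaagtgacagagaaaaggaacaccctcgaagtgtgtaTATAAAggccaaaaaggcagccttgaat
KRT25, chr17:40755332-40755431: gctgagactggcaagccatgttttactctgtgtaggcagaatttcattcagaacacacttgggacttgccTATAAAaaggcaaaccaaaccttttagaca
KRT26, chr17:40772202-40772301: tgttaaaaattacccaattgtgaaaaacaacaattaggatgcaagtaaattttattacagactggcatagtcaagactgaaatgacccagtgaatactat
KRT27, chr17:40782551-40782650: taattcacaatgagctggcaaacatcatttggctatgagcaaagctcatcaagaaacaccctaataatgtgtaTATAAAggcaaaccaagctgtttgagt
KRT28, chr17:40799960-40800059: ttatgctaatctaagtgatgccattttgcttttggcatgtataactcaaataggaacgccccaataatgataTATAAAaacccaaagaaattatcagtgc
KRT10, chr17:40822615-40822714: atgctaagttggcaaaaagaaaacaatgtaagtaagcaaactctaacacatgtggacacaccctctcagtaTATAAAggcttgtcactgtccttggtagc
KRT12, chr17:40867224-40867323: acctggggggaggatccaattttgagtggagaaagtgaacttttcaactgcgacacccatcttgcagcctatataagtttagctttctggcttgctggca

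TATAAA, searched on both strands, was in these 100 bases of KRT24, KRT25, KRT27, KRT28 and KRT10 and not in those of KRT26 and KRT12. Its first base was 27 to 30 bases before the start in all 5. Of 27305 promoters in the table, 1459 (5.34%) held it in the same window, as did 17 of the 34 keratin promoters listed there. KRT10 and KRT12 follow KRT28 in this order, and the first was well above background in all lines while the second was above background in none.

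KRT24, a keratin of differentiated epithelium, had green levels of 14.63, 14.55 and 14.57 on the 3 SBC-3 arrays. It was not well above background in EBC-1 (2.66), SK-MES-1 (3.16) or A549 (2.76 to 3.43). KRT25, a keratin of the inner root sheath of the hair follicle, was at 15.79, 15.61 and 15.64 in SBC-3 and at 3.13 to 4.40 in the other lines. SBC-3 and the other lines did not overlap for either gene. The other 3 are also keratins of the inner root sheath. KRT26 was at 9.45, 9.33 and 9.52 in SBC-3, KRT27 at 9.96, 10.003 and 10.15, and KRT28 at 10.27, 10.23 and 10.41. In the other lines they were at 2.60 to 4.83, again not well above background on any green array. Since the dim side is only a bound, KRT24 was at least 1086-fold higher in SBC-3 than in A549 and KRT25 at least 2325-fold. Also against A549, the bounds were at least 30.6-fold for KRT26, 46.6-fold for KRT27 and 55.9-fold for KRT28. The bounds against EBC-1 were lower, at 658-fold for KRT24 and 1410-fold for KRT25. For KRT26, KRT27 and KRT28 they were 18.5-fold, 28.2-fold and 33.9-fold. A bound is the mean of the bright line over the mean of, on each array of the dim line, the higher of the probe's own level and the lowest level among probes well above background. In the limma fit, the adjusted p of SBC-3 against A549 was 1.12e-07 for KRT24, 1.70e-07 for KRT25, 5.64e-07 for KRT26, 9.97e-09 for KRT27 and 1.01e-08 for KRT28. All 5 entered this fit through SBC-3 alone, with the dim A549 levels taken as measured, so these p-values add no support beyond the bounds. With normexp background correction, which adds an offset of 50 to the signals, all 5 still passed, with smaller log2 differences of 6.38 for KRT24, 7.41 for KRT25 and 1.69 to 2.46 for KRT26 to KRT28.

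The named genes beside them were looked up after these values had been seen. In the order along the chromosome, the stretch from TOP2A to KRT40 holds 17 named genes on the array. SBC-3 was over 2-fold above the highest other line at 8 of them, CCR7, SMARCE1, KRT222 and KRT24 to KRT28, which follow each other without a gap. The same held for 9.31% of 16012 named genes well above background in a line, with dim levels taken as measured, and for 5 of 25 keratins. CCR7, a chemokine receptor of lymphocytes, had a mean level of 14.46 in SBC-3 and 8.34 in A549, and was not well above background in the squamous lines. SMARCE1, a subunit of the SWI/SNF chromatin remodelling complex, had 12.59 in SBC-3 and 9.95 to 10.98 in the others. KRT222, a keratin-like gene outside the number range used here, had 13.74 in SBC-3 and 7.28 in A549. KRT10 was above the next line by 0.84 (SBC-3 15.73 ± 0.20, A549 14.89 ± 0.03, SD, n = 3 each). TOP2A, IGFBP4 and TNS4 on one side were lower in SBC-3 than in A549, and KRT12, KRT20, KRT23, KRT39 and KRT40 on the other side were not well above background in green in any line. Gene copy number was not measured.

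**Figure D1:**
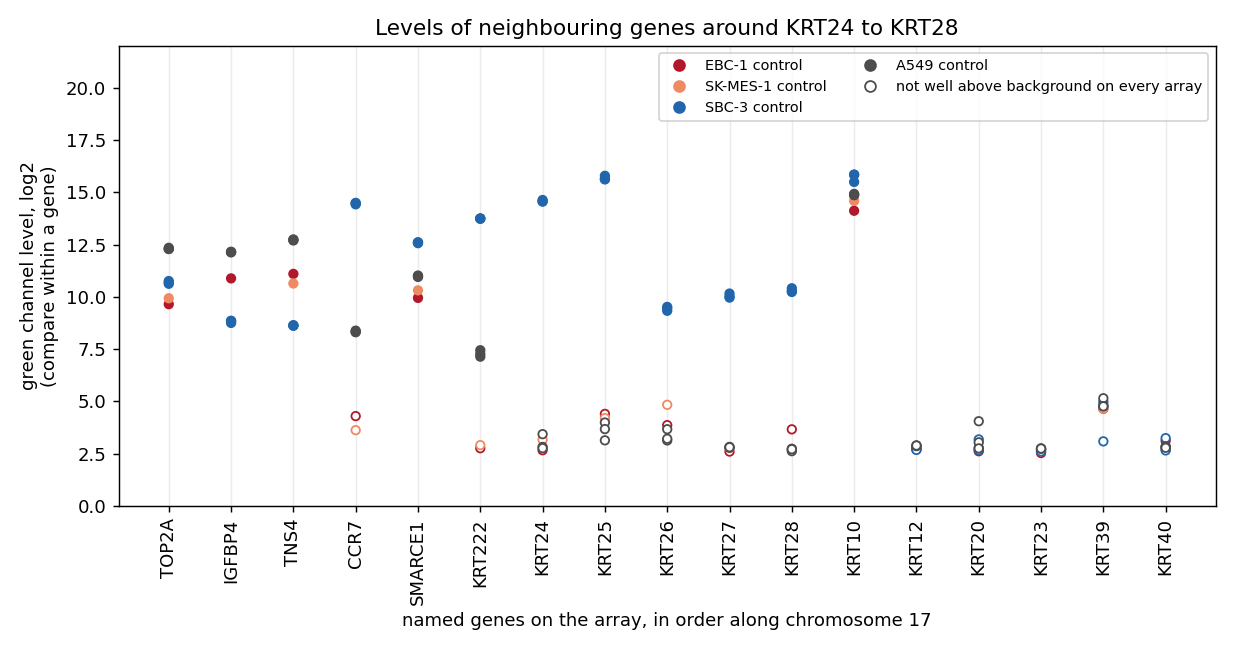
Green channel levels (log2, 1 point per array) of the named genes in their order along chromosome 17, from TOP2A to KRT40. Blue SBC-3 points stand above all other lines from CCR7 to KRT28, by 1.61 (SMARCE1) or more, and fall together with them from KRT12 on; open points were not well above background on every array of the line.

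The keratins of simple epithelium showed the reverse. KRT18, the type I partner of KRT8, was at 8.17, 8.38 and 8.20 in SBC-3, at 16.81, 16.79 and 16.77 in A549, and at 15.58 and 13.72 in EBC-1 and SK-MES-1. KRT19, a small type I keratin, was at 7.54, 7.33 and 6.998 in SBC-3, at 14.51 to 14.52 in A549, and at 17.76 and 16.46 in EBC-1 and SK-MES-1. KRT7, a type II keratin of glandular and airway epithelium, was at 10.50 to 10.65 in SBC-3 and at 16.21 to 17.65 in the other lines. KRT8 was the least different, at 8.76 to 9.01 in SBC-3, 11.75 to 11.77 in A549, and 11.45 and 9.55 in EBC-1 and SK-MES-1. By these gene means, SBC-3 was the lowest line for all 4 and overlapped with no other. A single KRT8 probe, A_24_P67395, did overlap, at 5.93 in SK-MES-1 and 5.40 to 6.16 in SBC-3. In log2, SBC-3 minus A549 was -8.54 (SE 0.06) for KRT18, -7.22 (SE 0.14) for KRT19, -6.94 (SE 0.09) for KRT7 and -2.91 (SE 0.08) for KRT8, and all 4 passed the limma test, with adjusted p-values of 8.62e-09 to 6.66e-07. KRT20, the fifth of the group and a marker of intestinal epithelium, was above background in no line. KRT8 rests on 3 probes, of which 1 is for a non-coding transcript of the gene.

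KRT80, a type II keratin found in many epithelia, followed the same order, with 6.05, 6.47 and 6.43 in SBC-3 and 11.80 to 12.41 in the other lines (SBC-3 minus A549 -6.04, SE 0.12, adjusted p = 2.28e-07). Among the basal keratins, KRT15 had levels of 10.05 (EBC-1) and 10.92 (SK-MES-1), was at 9.01 to 9.07 in A549 and at 7.63 to 8.03 in SBC-3, and no lines overlapped. KRT14, the type I partner of KRT5, was highest in SK-MES-1 (6.95), at 5.14 to 5.61 in SBC-3, where 1 of 3 arrays was not well above background, and not well above background in EBC-1 (2.99) or A549 (4.21 to 4.26). Thus KRT14 was at least 3.32-fold higher in SK-MES-1 than in EBC-1. These values are of probe A_33_P3345534. The other KRT14 probe, A_21_P0011517, was not well above background on any array (green 3.00 in SK-MES-1). KRT17, a keratin induced in activated and wounded epithelium, was at 6.71 in SK-MES-1 and at 6.12 to 6.20 in SBC-3, and not well above background in EBC-1 (3.605) and A549 (2.84 to 4.87). The bound for KRT17 was at least 2.81-fold for SK-MES-1 over EBC-1 and at least 2.86-fold for SBC-3 over A549. The limma adjusted p of KRT17 for SBC-3 against A549, 0.00539, takes the dim A549 levels as measured. KRT16, its close relative in wounded skin, was well above background only in SK-MES-1 in green, at 5.58. KRT14, KRT16 and KRT17 are closely similar in sequence, as are KRT6A, KRT6B and KRT6C, KRT33A and KRT33B, and KRT81, KRT83 and KRT86, so which of them a probe measured is uncertain.

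KRT81 and KRT83, type II keratins of the hair cortex, were brightest in A549. KRT81 was at 18.18, 18.11 and 18.09 in A549 and at 12.24 to 12.84 in the 3 other lines, which lay close together. KRT83 was at 14.21 to 14.23 in A549, 8.14 in EBC-1, 6.50 in SK-MES-1 and 4.88 to 5.14 in SBC-3, as the mean of 2 probes. The probes differed, since A_24_P410408 was well above background in A549 only (13.25 to 13.27) and A_33_P3273552 in all lines (15.15 to 15.21 in A549, 6.82 to 6.85 in SBC-3). KRT81 overlaps KRT86 in the genome. KRT4, a type II keratin of mucosal squamous epithelium, was well above background in green in A549 only, at 8.90, 8.995 and 8.94, which was at least 13.5-fold higher than in SBC-3 and at least 10.9-fold higher than in EBC-1. KRT32, a type I hair keratin, had levels of 7.21 (EBC-1) and 5.90 (SK-MES-1) and was well above background on 1 of 3 A549 arrays (5.09) and on no SBC-3 array. KRT33A, another hair keratin, was well above background on all 3 A549 arrays (5.13 to 5.51) and in SK-MES-1 (4.99), and KRT31, a hair keratin too, on 2 of 3 A549 arrays (5.16 and 5.34) and in no other line.

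Among the remaining keratins, no difference of over 2-fold between SBC-3 and A549 was called. KRT10 and KRT73, an inner root sheath keratin, were well above background on all arrays, KRT73 at 8.67 to 8.92 in SBC-3 and 8.96 to 9.55 in the others. KRT3, a corneal keratin, lay between 6.20 and 7.05 on the 8 arrays. KRT78, a keratin of stratified epithelium, lay between 5.47 and 6.32, and KRT85, a hair keratin, between 4.41 and 5.87, and for both the ranges of SBC-3 and A549 overlapped. KRT9, of palm and sole skin, was at 4.43 to 4.75 in SBC-3, not well above background, and at 5.73, 4.90 and 5.62 in A549, where 2 of 3 arrays were well above background.

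Counted over the family, 6 of 21 keratins were higher in SBC-3 than in A549 at an adjusted p under 0.05 and over 2-fold, KRT24 to KRT28 and KRT17, and 10 of 21 were lower, against 19.8% and 21.1% of 14726 genes. Dim levels were taken as measured in these counts. The 6 higher keratins were not well above background on any A549 array and were tested through SBC-3 alone, which favours a higher level there. KRT4 and KRT33A, among the 10, were likewise not well above background on any SBC-3 array, and the bound of KRT33A was only at least 1.06-fold. With normexp the calls of KRT15, KRT17 and KRT33A ended, at log2 differences of -0.69, 0.21 and -0.08. In the red channel those of KRT15 and KRT33A were not made, at -0.34 and -0.43. Red is the treated RNA, so its levels also hold the treatment ratios and do not measure the controls. The median difference was -0.44 over these keratins and -0.04 over all genes. Between the squamous lines, with 1 array each and no test, 5 of 19 keratins were over 2-fold higher in EBC-1 and 2 of 19 in SK-MES-1, against 16.6% and 19.8% of all genes. The 5 were KRT8 (log2 difference 1.90), KRT18 (1.86), KRT83 (1.64), KRT32 (1.32) and KRT19 (1.30). The other 2, KRT14 and KRT17, had a dim level in EBC-1. Both squamous lines were above every SBC-3 and A549 array for 5 of 25 keratins, KRT15, KRT16, KRT19, KRT32 and KRT73, and below them for 2 of 25, KRT10 and KRT27, against 15.9% and 16.9% of all genes. For KRT16 and KRT27 this rests on levels not well above background. In RNA from a whole culture, fewer cells that carry a transcript and less transcript per cell cannot be told apart.

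**Figure D2:**
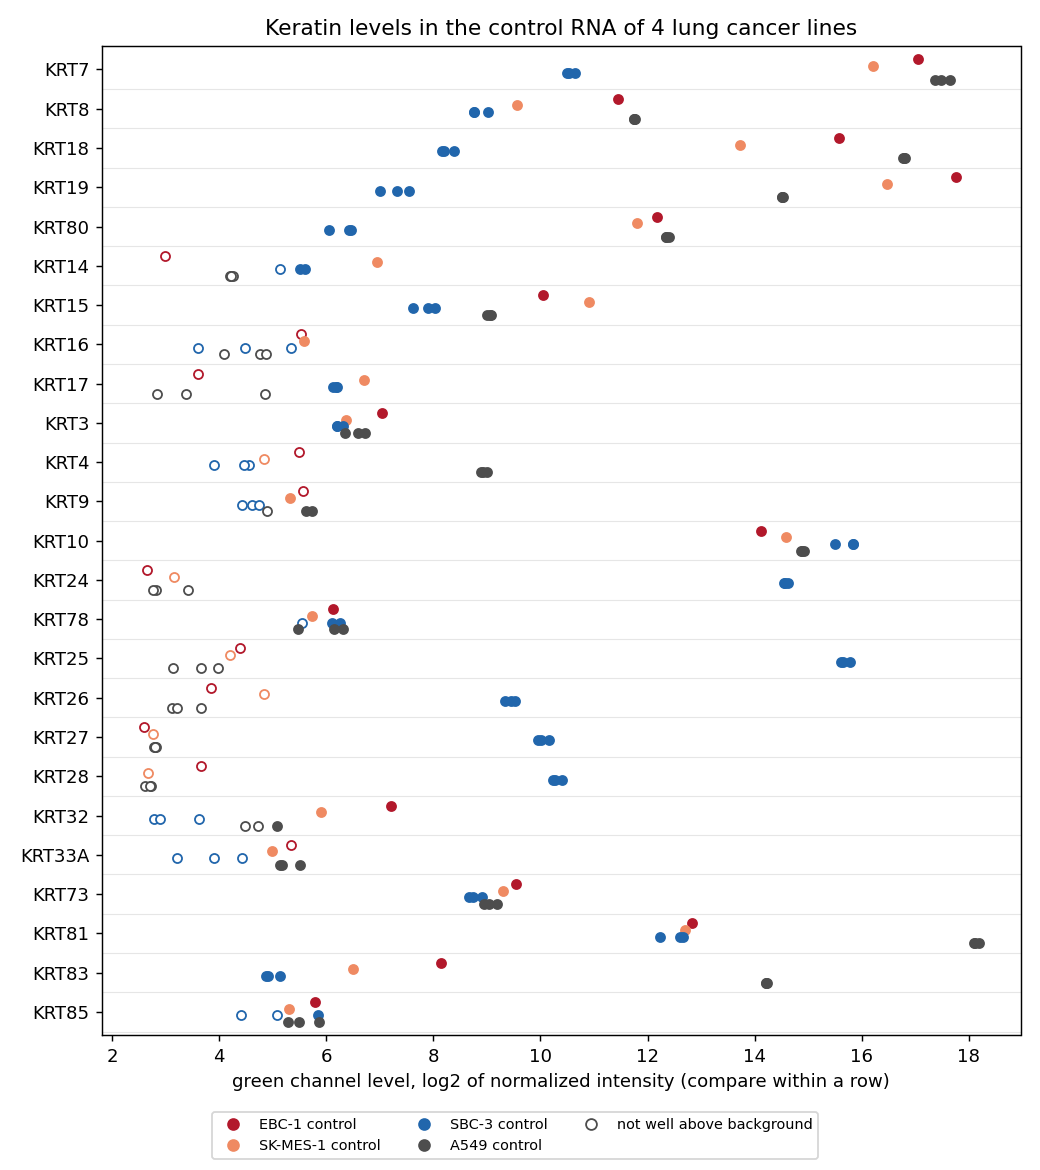
Green channel levels (log2, 1 point per array) of 25 keratins in the control RNA of EBC-1 and SK-MES-1 (1 array each) and of SBC-3 and A549 (3 arrays each), to be compared within a row. SBC-3 stands far left for KRT7, KRT18, KRT19 and KRT80 and far right for KRT24 to KRT28; open points were not well above background.

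The effect of each treatment on the keratins was read from the log2 ratio of red over green. Each group mean was tested against 0 in a limma fit of all 8 arrays and Benjamini-Hochberg adjustment over all genes. With LOXL2 edited, KRT4, KRT8, KRT15, KRT18 and KRT19 fell in A549. KRT19 had log2 ratios of -1.42, -1.50 and -1.68 in GE1, GE2 and GE3 (mean -1.54, SE 0.13, adjusted p = 0.00096). KRT15 had -1.17, -1.41 and -1.32 (mean -1.30, SE 0.09, adjusted p = 0.000755). KRT4 had -2.30, -1.94 and -1.44 (mean -1.89, SE 0.17, adjusted p = 0.00339). All 9 of these ratios were further from 0 than the 95% limits that the software's error sets for noise within an array. With normexp, KRT15 was at -0.79 and KRT4 at -0.92, and with the mean of the other arrays subtracted, against a dye bias shared by all arrays, KRT19 was at -0.59, all still past the threshold. The pair KRT8 and KRT18 had smaller ratios. KRT18 had -0.87, -0.75 and -0.62 (mean -0.75, SE 0.10, adjusted p = 0.00416), and both of its probes were below 0 on every array. KRT8 had -0.59, -0.53 and -0.46 (mean -0.53, SE 0.09, adjusted p = 0.00918), and its call was lost without any 1 of the 3 edited arrays (adjusted p = 0.0577 to 0.0776). KRT7 did not pass, at -0.13, -0.01 and -0.22 (adjusted p = 0.387), nor did KRT81, a hair keratin, at -0.14, 0.02 and -0.09. KRT80 (-0.45, -0.36 and -0.40) and KRT83 (-0.51, -0.35 and -0.36) were below 0 on all 3 arrays without passing (adjusted p = 0.232 and 0.174). KRT80 passed in 4 of the other settings tried, among them the fit without the siDONSON-2 array.

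In all, 5 of 20 keratins fell in the edited cells, against 6.77% of 15529 genes, and 1 of 20 passed above 0, against 7.59%. The median log2 ratio was -0.14 over the 20 keratins and 0.02 over all genes. The keratin that passed above 0, KRT26 (0.64, 0.99 and 0.86), was not well above background in green on any A549 array. It was tested through the red channel only, so that neither a fold nor a direction can be given. Its limma adjusted p ranged from 0.0011 to 0.94 over the other settings tried. By role, 3 of 4 keratins of simple epithelium fell (KRT8, KRT18 and KRT19) and the 1 basal keratin tested (KRT15) fell. Of 5 suprabasal keratins 1 fell (KRT4), and of 9 hair and hair follicle keratins 0 fell and KRT26 passed above 0. For the 9, an unadjusted p under 0.05 was reached by KRT26 alone.

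With the siRNAs against DONSON, 6 of 23 keratins fell in SBC-3, against 3.21% of 14452 genes, and 2 of 23 passed above 0, against 4.01%. The median was -0.06 over the keratins and 0.03 over all genes. Without siDONSON-3 the keratins that passed were 2, KRT19 and KRT80, without siDONSON-1 they were 4 and without GE3 they were 5, and with the spread of the 3 siDONSON arrays alone 0 passed in limma (10 at an unadjusted p under 0.05). KRT80 had log2 ratios of -1.44, -2.55 and -1.38 (mean -1.79, SE 0.21, adjusted p = 0.00918). With siDONSON-2 its red signal was not well above background, which bounds the drop there to at least 4.52-fold. KRT19 had -1.30, -1.73 and -1.14 (mean -1.39, SE 0.13, adjusted p = 0.0045), and KRT15 had -0.42, -0.59 and -0.32 (mean -0.44, SE 0.09, adjusted p = 0.0332). These 3 were lowest with siDONSON-2. Their values shrank with normexp, to -0.21 for KRT80, -0.29 for KRT19 and -0.18 for KRT15, where KRT15 no longer passed (adjusted p = 0.0533). KRT19 and KRT15 were below 0 on all 8 arrays, and with the mean of the other arrays subtracted KRT19 was at -0.35 and did not pass (adjusted p = 0.0879) while KRT15 turned to 0.37. The call of KRT15 was also lost without any 1 of the siDONSON or LOXL2 arrays. The partners KRT8 and KRT18 did not pass (adjusted p = 0.331 and 0.158), with KRT18 at -0.14, -0.33 and -0.26 and KRT8 at -0.20, -0.22 and 0.00, nor did KRT7, at -0.09, -0.09 and -0.00.

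Of the keratins high only in SBC-3, KRT27 had -1.55, -0.82 and -0.84 (mean -1.07, SE 0.18, adjusted p = 0.0404). KRT28 had -0.98, -0.89 and -1.10 (mean -0.99, SE 0.10, adjusted p = 0.0175), and KRT26 had -0.99, -0.52 and -0.74 (mean -0.75, SE 0.12, adjusted p = 0.0223). With normexp KRT27 was at -0.65 and KRT26 at -0.41, both still past the threshold. The call of KRT27 was lost without any 1 of the siDONSON or LOXL2 arrays. Those of KRT26 and KRT28 were lost without siDONSON-1 and without siDONSON-3, and that of KRT26 also without GE3. KRT25 (-1.03, -0.49 and -0.40) and KRT24 (-0.49, -0.09 and -0.26) were below 0 with all 3 siRNAs and did not pass (adjusted p = 0.0877 and 0.231). For 4 of these 5 genes the lowest ratio was with siDONSON-1. Of the neighbours, KRT222 had -0.87, -0.32 and -0.72 (mean -0.64, SE 0.14, adjusted p = 0.0452), SMARCE1 -0.67, -0.14 and -0.17 (adjusted p = 0.178) and CCR7 -0.04, 0.05 and 0.05 (adjusted p = 0.909). KRT10 had 0.86, -0.25 and -0.33, so that siDONSON-1 stood apart in the other direction.

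KRT31 (1.09, 1.74 and 1.31, adjusted p = 0.0112) and KRT33A (1.38, 0.65 and 1.06, adjusted p = 0.0151) passed in limma with ratios above 0. Both were not well above background in green on any SBC-3 array, so that they were tested through the red channel only. Such a filter favours ratios above 0. Red was near the floor, at 4.93 to 5.27 and 4.59 to 5.07, so that neither a fold nor a direction can be given. Both calls ended with normexp, at 0.08 (adjusted p = 0.172) for KRT31 and 0.05 (adjusted p = 0.362) for KRT33A, and neither was tested where both channels had to be well above background. KRT31 was above 0 on all 8 arrays, with 0.15, 0.30 and 0.67 in the edited A549 cells. Without a dye swap, a bias of the dye for a probe cannot be told apart from a rise or a fall in all treatments. KRT17 had -0.14, -2.85 and -0.38 and did not pass (adjusted p = 0.288). With siDONSON-2 its red signal was not well above background, a drop of at least 3.69-fold. A single array cannot be tested alone.

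With miR-150-3p, 0 of 21 keratins fell, against 2.9% of 14228 genes, and 2 of 21 passed above 0, against 2.47%. At an unadjusted p under 0.05 there were 4, KRT14, KRT31, KRT39 and KRT80, all above 0, and limma was the only tool run. Of these, KRT31 and KRT39 had a dim green channel in both lines, and KRT14 had one in EBC-1. There they counted through red alone, which favours ratios above 0. The median was 0.04 over the keratins and 0.04 over all genes. Both calls were lost without the EBC-1 array, without siDONSON-3, without any of the 3 LOXL2 arrays and with normexp (0.29 for KRT14 and 0.10 for KRT31). KRT14 had 1.77 and 1.13, in EBC-1 and SK-MES-1 in this order (mean 1.45, SE 0.20, adjusted p = 0.0295). In SK-MES-1 both channels were well above background, from 6.95 in green to 8.08 in red, while in EBC-1 the green level was not and the ratio lay within the software's 95% limits. KRT31 had 1.53 and 0.79 (mean 1.16, SE 0.22, adjusted p = 0.0362), with a dim green channel in both lines and a bound of at least 1.60-fold. KRT80 had 0.67 and 0.63, both outside the 95% limits, and did not pass (mean 0.65, SE 0.26, adjusted p = 0.139). It passed where both channels had to be well above background, with normexp, with the other arrays subtracted and without siDONSON-2, and in no other setting. Its limma adjusted p ranged from 0.00234 to 0.569 over the settings tried. KRT17 counted only in SK-MES-1, where it was at 1.09, from 6.71 in green to 7.81 in red.

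The 4 keratins of simple epithelium that were tested, and KRT15, did not pass. In EBC-1 and SK-MES-1, in this order, KRT19 had -0.17 and -0.40, KRT18 0.02 and -0.24, KRT8 0.13 and 0.11, KRT7 -0.03 and 0.10 and KRT15 -0.04 and -0.15. None of these 10 ratios went beyond the software's 95% limits. The difference of the response between EBC-1 and SK-MES-1, tested in a fit of 4 groups, passed for 0 of 21 keratins in either direction, against 1.58% of 14030 genes lower and 0.527% higher in EBC-1. At an unadjusted p under 0.05 there was 1, KRT78 (0.43 against -0.46, adjusted p = 0.193). As there is 1 array per line, this fit takes its spread from the siDONSON and LOXL2 arrays only, with 4 residual degrees of freedom.

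**Figure D3:**
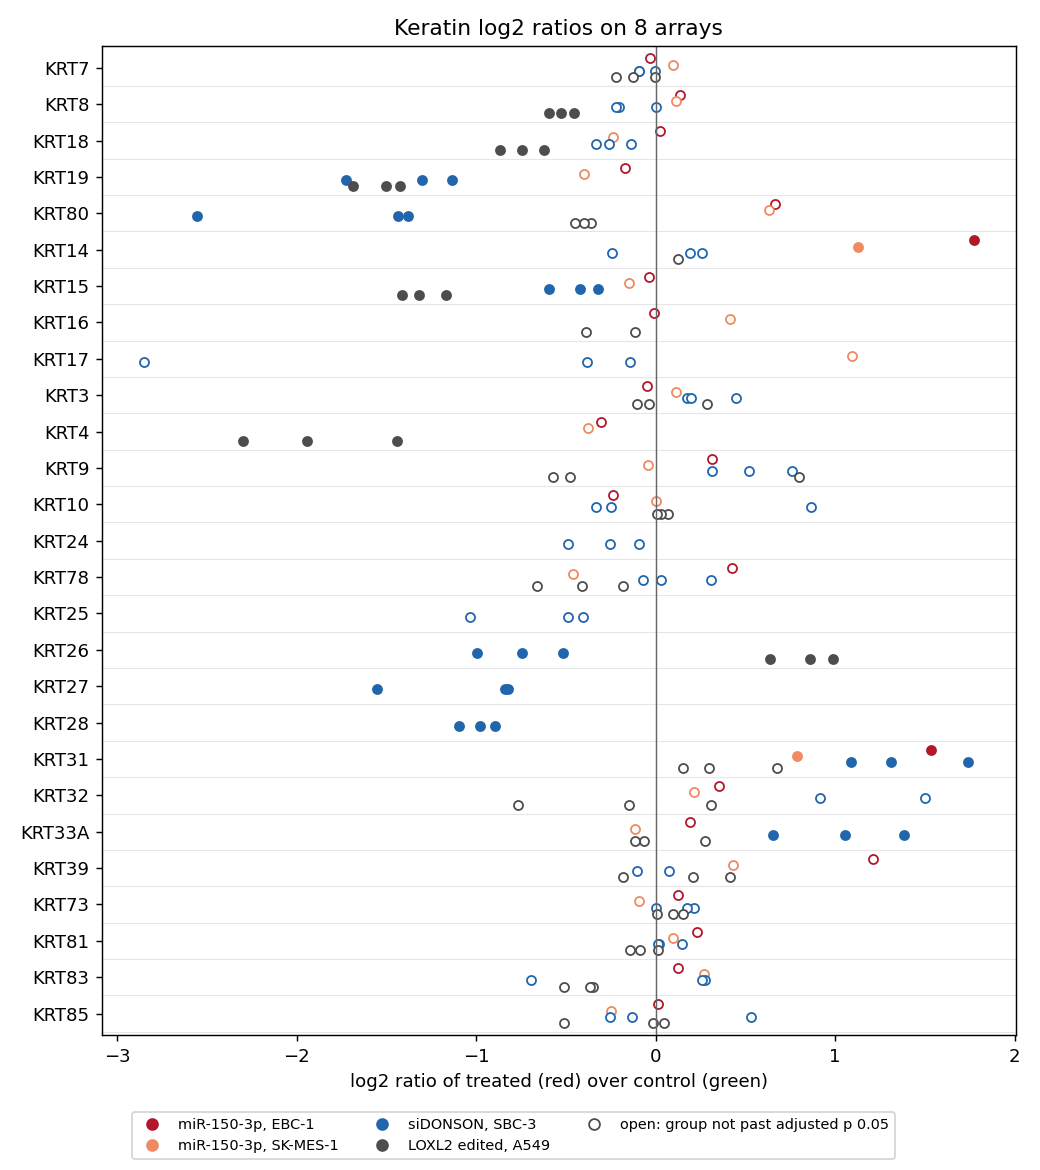
Log2 ratio of treated over control RNA of the keratins that counted on at least 3 arrays, 1 point per array, filled where the group mean passed an adjusted p of 0.05. Black points (LOXL2 edited) lie left of 0 for KRT4, KRT8, KRT15, KRT18 and KRT19, and blue points (siDONSON) for KRT15, KRT19, KRT26, KRT27, KRT28 and KRT80.

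**Figure D4:**
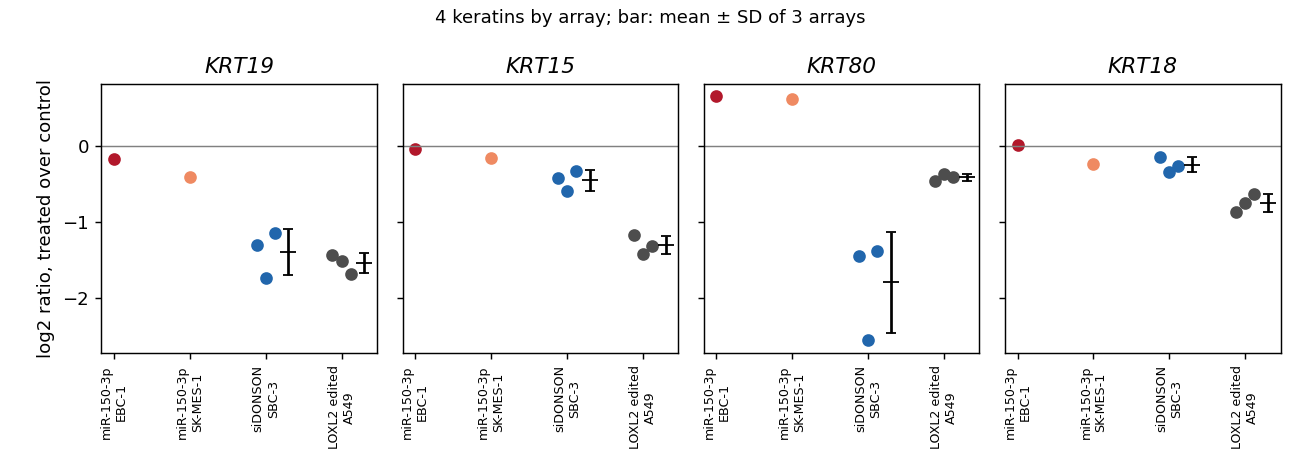
Log2 ratios of KRT19, KRT15, KRT80 and KRT18 on each array, with black bars for the mean and SD of 3 arrays. KRT19 and KRT15 were below 0 on all 8 arrays, KRT80 was above 0 in both squamous lines and below 0 in SBC-3 and A549, and KRT18 fell in A549.

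The same genes can be set side by side, since the 3 treatments have their own controls and their own lines, which cannot be told apart from the treatments. KRT19 had mean ratios of -0.28 with miR-150-3p, -1.39 with siDONSON and -1.54 with LOXL2 edited. KRT15 had -0.09, -0.44 and -1.30, and KRT80 had 0.65, -1.79 and -0.40. Differences between treatments were not tested.

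Keratins are tied to the cell by desmosomes and hemidesmosomes, and other lists of their partners were counted. Of 22 anchor genes, 14 were tested in the edited A549 cells, where 3 fell and 1 rose, against 6.77% and 7.59% of all genes. The plaque protein PKP2 had -0.98, -1.87 and -1.07 (mean -1.31, SE 0.26, adjusted p = 0.0172), and the hemidesmosome integrin ITGB4 had -1.34, -1.55 and -0.98 (mean -1.29, SE 0.18, adjusted p = 0.0108), while PERP, a desmosomal protein, rose (0.37, 0.34 and 0.41). With siDONSON, 0 of 12 fell in the limma fit (0 at an unadjusted p under 0.05 too) and 2 rose, DST, a linker of keratin to hemidesmosomes (0.95, 0.64 and 2.00), and ITGA6, the partner of ITGB4 (0.54, 0.38 and 0.62), against 3.21% and 4.01% of all genes. With miR-150-3p, ITGA6 fell (-0.48 and -0.48, limma adjusted p = 0.0493), the 1 of 15 that passed. With the spread of the miR-150-3p arrays alone, 0 of 14228 genes passed. In the reported fit 2.9% of all genes were lower and 2.47% higher. These shares are also the background of the lists that follow. The median of the anchor genes was -0.15 in the edited cells, -0.04 with siDONSON and -0.00 with miR-150-3p, against 0.02, 0.03 and 0.04 over all genes.

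Of 15 regulators of epithelial genes, 3 of 9 tested fell in the edited cells and 0 rose (1 at an unadjusted p under 0.05 in limma), among them KLF4, an epidermal barrier factor (-1.18, -1.45 and -1.34), and GRHL1, a grainyhead factor (-1.43, -0.91 and -1.14). With siDONSON, 1 of 8 fell, ZNF750, a differentiation factor (-1.51, -2.91 and -1.31, limma adjusted p = 0.044). With miR-150-3p 0 of 7 passed in limma, also at an unadjusted p under 0.05. Of 19 cornified envelope genes, 1 of 8 tested fell in the siDONSON arrays (CSTA, a protease inhibitor, mean -0.78, limma adjusted p = 0.0188). With miR-150-3p 1 of 7 fell (TGM1, the crosslinking enzyme, mean -0.72, adjusted p = 0.045). In the edited cells 1 of 7 rose (CNFN, mean 0.56, adjusted p = 0.00796). These are single calls among few genes tested. Of 16 other intermediate filament genes, 2 of 13 fell and 2 rose in the edited cells, with NEFL, a neurofilament, at -1.15, -2.09 and -1.66. Among them 0 of 13 passed in the limma fit with siDONSON and 0 of 8 with miR-150-3p, against 5 and 4 at an unadjusted p under 0.05. In the controls, INA, a neuronal filament, was lower in SBC-3 than in A549 (-7.68, SE 0.07), whereas NEFM was higher (7.46, SE 0.31).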

How the data were processed

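The authors deposited Agilent Feature Extraction 12.1.1.1 output (protocol GE2_1200_Dec17, design build hg19) for 8 arrays. Per the file headers and columns, the software had subtracted background, removed spatial trends and balanced the dyes in the processed intensities. A deposited table holds the same values as log10 ratios of red over green, with a largest difference of 0, and was used for this check only. Probes were named by accession through RefSeq (24778 of 49793 matched), and promoters come from RefSeq GRCh38.p14, not the design's build.

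Outlier spots (81 to 133 of 60901 per array) were left out, and 0 spots were saturated. A probe counted when well above background in at least 1 channel, and a gene is the mean of its counted probes (14757 to 16175 genes per array). Log2 ratios were fitted with limma 3.58.1 in R 4.3.3 (3 groups, 5 residual degrees of freedom), with a Benjamini-Hochberg threshold of 0.05. Levels used Aquantile normalization. The fit was tested on simulated data, in which all arrays were given the spread of the siDONSON and LOXL2 arrays. Such a test could not check whether the miR-150-3p arrays share that spread. Alternatives changed the normalization, the filter on dim probes, probe choice, centring, the source of the spread, the replicate block and the arrays included. Keratins named with values were those well above background in both channels on every array of a line or called in a fit, and of the other lists at most the 2 highest and 2 lowest called genes are named. Not every neuroendocrine marker of the list is reported here. The members and lists were chosen with earlier results of these data known. All arrays share the slide, which leaves no slide block, and precision is limited by how few arrays there are. Figures were drawn with matplotlib 3.10.9.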

Additional observations from a re-analysis of the deposited data

How the results depend on the processing

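The settings tried were other normalization, filters on dim probes, probe choice, centring, dye bias, source of the spread, fold limits and leaving out arrays. Members by the array's gene name column were not run, as the deposited files have no such column, and the normexp setting used median signals. For miR-150-3p, 2 keratins passed in the reported setting, 1 with both channels well above background (KRT80) and 1 with normexp and loess (KRT80). With the other arrays subtracted 6 passed, KRT4, KRT8, KRT14, KRT15, KRT19 and KRT80, all above 0 after the subtraction. Of these 6, KRT4, KRT15 and KRT19 had mean ratios below 0 before it and fell in the subtracted LOXL2 arrays. With no filter on dim probes 0 passed, with the spread of the group alone 0, and with 1 siDONSON or LOXL2 array left out 0 to 3. For siDONSON, 8 passed, and 5 with both channels well above background, 5 with normexp and loess, 18 with no filter, 0 with the spread of the group alone, 5 at 2-fold or more, and 2 to 8 with 1 array left out. For the LOXL2 arrays, 6 passed, and 19 with no filter, 3 at 2-fold or more, and 4 to 8 with 1 array left out. With no filter, 9 of the 18 siDONSON calls and 12 of the 19 LOXL2 calls were keratins not well above background on any array in either channel. The other arrays include the LOXL2 arrays, where KRT15 had a mean of -1.30, so subtracting them turned KRT15 in the siDONSON arrays to 0.37. Whether a dye bias shared by the arrays added to this was not tested. Between SBC-3 and A549, 16 keratins passed, and 8 with probes above background in every line, which leaves out the genes seen in 1 line only by construction. Between EBC-1 and SK-MES-1, 7 were over 2-fold apart, 3 with normexp and loess, 4 with probes above background in every line and 2 at 4-fold. Both squamous lines stood above the others for 5 keratins, 8 in red (the treated RNA) and 3 with probes above background in every line. Over single keratins, 202 of 259 ratio comparisons and 194 of 199 level comparisons kept direction and side of the threshold, 56 and 5 no longer passed, and 1 turned.

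The replicate numbers shared by the siDONSON and LOXL2 arrays are names only, since the same-numbered arrays deviated with correlations of -0.02, -0.01 and -0.01. With them as a replicate block, 5 keratins passed in each of these groups, and 16 between SBC-3 and A549. Over all genes, centring on the median moved the lower share of the siDONSON calls from 44.4% to 54.7%. Signal over background limits the dim genes, since a green level near 4.41 to 5.23 is the lowest that counted as above background, and ratios of KRT14, KRT26, KRT31 and KRT33A rest on a channel near it.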
